A study of Homo sapiens with 4 samples.

Results

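The sites described here are adenosines in the middle of a 5-mer written GAACH here, in which H is A, C or U. Each lay in a synthetic RNA that had been designed around another adenosine, at position 51, so these GAACH sites are bystanders of the design. They were chosen by sequence alone: every adenosine other than that at position 51 and those in the outermost 2 nucleotides at either end, in the 141-nt sequences of the m6A class and of the unmodified class, with G at -2, A at -1, C at +1 and A, C or U at +2. The rule found 1361 sites, of 8271 bystander adenosines in any DRACH motif, 104831 bystander adenosines of all kinds and 556809 positions in the whole table. They comprised 483 GAACA, 430 GAACC and 448 GAACT sites. The 1361 sites lay in 1110 of the 3488 sequences of both classes, with 1 site in 891 of them and up to 4 in the other 219.

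The study asked where the recombinant METTL3–METTL14 complex methylates naked RNA, using a pool of 11999 oligonucleotides transcribed in vitro. Their transcript regions had been selected from crosslinking data of HEK293T cells, a human embryonic kidney line: 1988 around an adenosine found methylated there (m6A class) and 1500 around an adenosine found unmodified (unmodified class), each present as 3 oligonucleotides with different tags. Both groups received the same pool and the same antibody procedure with 500 ng of RNA as input. The unmethylated group (2 libraries) was incubated without the complex and the methylated group (2 libraries) with it. The reaction was cell-free, and all libraries share the one synthetic pool. The unmethylated libraries had totals of 10483825 and 12028474 counts, the methylated ones 13110615 and 13265092. The labels say only that the experiments were done in duplicate, so the p-values reflect differences between libraries that may be technical repeats.

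N6-methyladenosine is the most common internal modification of messenger RNA. In the writer complex METTL3 is the catalytic subunit and METTL14 holds the RNA, and together they favour adenosines in the DRACH consensus (D is A, G or U, and R is A or G). GGACU is the motif most often found methylated in cells, whereas GAACU and its relatives carry the purine A in place of G next to the methylated adenosine. In miCLIP2, an antibody against m6A is crosslinked to the RNA and reverse transcription stops there, so the count at a nucleotide is the number of such stops. The antibody also crosslinks to RNA without m6A, which is the background that the unmethylated libraries measured.

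The windows below show which sequences the results turn on, as DNA letters (T for U) from 5′ to 3′, with the GAACH 5-mer in capitals and 10 further nucleotides on either side of it. The distance is that of its adenosine from the selected one. The first 7 are sites with the largest rises.
BLTP2, 51 nt downstream: gcatgtggtaGAACAggttcaagag
GPR157, 18 nt downstream: ctcaacagagGAACCagttgccatt
MEPCE, 60 nt downstream: ttgatcccctGAACCtgaatagcct
LENG8, 35 nt upstream: cacctacaccGAACCtgccaagccc
APEH, 28 nt downstream: aacgcatggaGAACAttcgattctg
GLRX5, 43 nt downstream: cttggtggaaGAACTgaaaaagctg
CLSTN3, 11 nt downstream: gactttctggGAACAcagagaccaa
The next 6 are sites with a rise among those with the most counts.
CEBPA, 6 nt downstream: cggtggacaaGAACAgcaacgagta
ANKRD10, 47 nt downstream: tcccagaactGAACAgtgtggtcga
CLSTN3, 43 nt downstream: agaggcttcaGAACCagtcctcctt
USP20, 31 nt downstream: ttgctgattgGAACAccaggaggag
PRMT6, 43 nt downstream: ctccacgcgcGAACCaagtggctga
VHL, 59 nt downstream: tgcgctcggtGAACTcgcgcgagcc
The last 4 have many counts but no change past the threshold.
RNF40, 52 nt downstream: ccggggccgaGAACCtgaggccagg
POP4, 57 nt downstream: ccatggggagGAACAgactggcagg
SENP6, 70 nt downstream: gggccgagagGAACCgggcccggga
DDN, 19 nt downstream: gaggccccggGAACTctcaggtgcc
Apart from the 5-mer that the rule required, the windows of the rising sites have no base in common at every one, and the sites that did not pass the test carry the same 5-mers.

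Together the GAACH bystanders gained counts with the writer complex. Their summed counts were 8549 and 9538 without the complex, against 27925 and 29855 with it. As a share of the library these were 0.0815% (95% Wilson interval 0.0798% to 0.0833%) and 0.0793% (0.0777% to 0.0809%), against 0.213% (0.211% to 0.216%) and 0.225% (0.223% to 0.228%). These intervals cover counting error only, since reads of one origin are not independent molecules. The pooled level was 804.2 ± 15.9 CPM (counts scaled to a common library total; SD, n = 2) without the complex and 2190.3 ± 85.3 CPM with it, a ratio of 2.72 (SD 0.12). Both methylated libraries lay far above both unmethylated ones. With 2 libraries against 2, an exact permutation test (two-sided) gave p = 0.33, the smallest value this design allows. Set against the counts of the host sequences, the level went from 3.35 ± 0.05 to 8.86 ± 0.20 per 1000 host counts (SD, n = 2), a ratio of 2.64.

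The gain was largest at the adenosine itself. Summed over all member sites, offsets from -10 to +10 other than 0 had ratios of methylated to unmethylated CPM between 0.99 (at -4) and 1.27 (at -6). Where adenosines of other DRACN motifs (DRACH or DRACG) were left out, that range was 0.96 (at +8) to 1.18 (at -1). The position just before the adenosine, the A at -1, had 1713.9 and 1717.5 CPM without and 1922.5 and 2119.0 CPM with the complex. Within 5 nt on either side, the adenosine held 4.07% ± 0.018 of the counts without the complex, which became 9.77% ± 0.016 with it (SD, n = 2). Without the complex its 804.2 CPM lay below the 4969.8 ± 370.7 CPM at -4 and the 1202.5 ± 81.3 CPM of the C at +1.

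**Figure D1:**
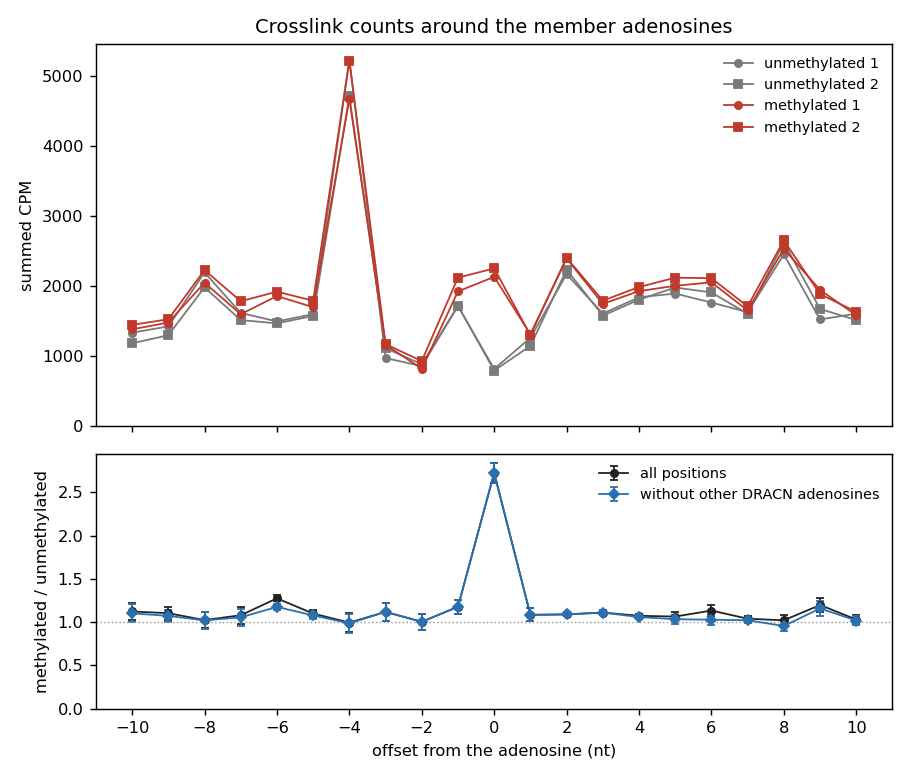
Summed CPM (upper panel, 1 line per library) and the ratio of the methylated to the unmethylated mean (lower panel, error bars SD) at each offset in nucleotides from the 1361 adenosines. At offset 0 the ratio is 2.72, and at the other offsets of all positions it lies between 0.99 and 1.27.

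Counts were unevenly spread over the sites. No count was found at 352 of them in any library, 676 had counts but too few to test, and 333 had at least 10 counts in at least 2 libraries and entered the test. The tested sites held 92.2% of the members' counts, the top site 3.24%, the top 10 together 20.1%, and 50 sites held 50%. Host sequences of tested sites had a median of 17112 counts over the 4 libraries, against 1405.5 for hosts of untested ones.

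Of the 333 tested sites 40.8% were higher in the methylated libraries and 0 lower by edgeR's quasi-likelihood test, at an adjusted p of 0.05 over all sites of the table. Over all 142938 tested sites, 3.7% were higher and 2.01% lower. At an unadjusted p under 0.05, 211 of the GAACH sites were higher and 0 lower, where 10.4% of all tested sites were higher. DESeq2 called 86 of the GAACH sites higher and 0 lower, and 2.12% of all sites higher. The median log2 fold change was 1.36, against -0.01 over all tested sites, with the 10th and 90th percentiles of the members at -0.06 and 3.39. The other 197 sites passed in neither direction. A negative value was found at 37 sites, down to -1.20. In 257 of the 333 sites both methylated libraries were above both unmethylated ones, which held for 26% of all tested sites, and every called site was among the 257. Relative to the total of the host sequence, 33% of the 333 were higher, with 1.8% of all sites called higher in that fit. Of the sites called without that adjustment, 76.5% were called in this fit as well.

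The filter lets a site pass through its methylated counts alone, so the count and the median over the tested sites depend on it. Of the 174 sites with at least 10 counts in both unmethylated libraries, 60 were higher, with a median log2 fold change of 0.72. Of the 97 with under 10 in both, 52 were higher, with a median of 2.38, and of the 62 with under 10 in 1 of them, 24 were higher, with a median of 1.49. The 3.7% over all tested sites was not split in this way, so these shares have no background of their own. The number of calls also rested on having both methylated libraries. Without methylated replicate 1 the test called 57 sites of 234, and without methylated replicate 2 it called 47 of 231, while calls over all sites fell to 1829 and 1386.

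**Figure D2:**
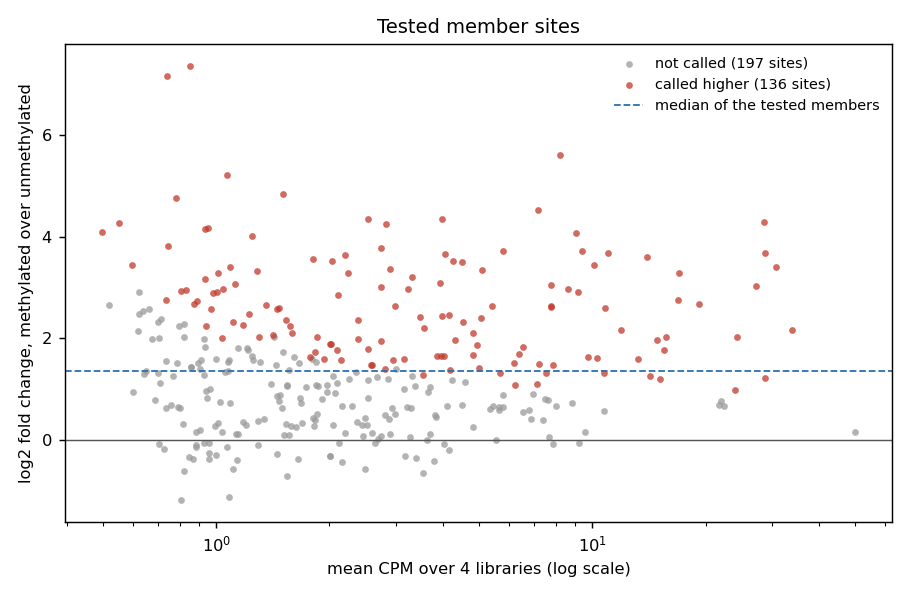
Log2 fold change (methylated over unmethylated) of each of the 333 tested sites against its mean CPM over 4 libraries on a log axis, with sites called higher in red and the others in grey. The called sites, 40.8% of those tested, span much of the range of counts, but the site with the most counts, in DDN, was not called. The dashed line is the median of 1.36.

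The base at +2 went with the size of the gain. GAACA sites, the A-ending form, had 279.4 and 257.9 CPM in the unmethylated and 859.3 and 1007.8 CPM in the methylated libraries, a ratio of 3.48 (SD 0.44). GAACC sites had 254.7 and 258.4 against 644.3 and 647.6 CPM, a ratio of 2.52 (SD 0.03). GAACT sites, the U-ending form, had 281.4 and 276.7 against 626.4 and 595.2 CPM, a ratio of 2.19 (SD 0.08). In CPM the unmethylated levels of the 3 forms lay between 254.7 and 281.4, and with the complex GAACA stood above both other forms. Per 1000 host counts the levels without the complex were 2.71 ± 0.15 for GAACA, 2.57 ± 0.04 for GAACC and 4.23 ± 0.01 for GAACT, and with it 9.74 ± 0.74, 6.17 ± 0.02 and 8.20 ± 0.37 (SD, n = 2). On that scale GAACT had the highest background and stood above GAACC with the complex, while the ratios kept their order at 3.59, 2.40 and 1.94. On the log2 scale the rise of GAACA exceeded that of GAACC by 0.46 ± 0.18 and that of GAACT by 0.66 ± 0.22, and the rise of GAACC exceeded that of GAACT by 0.20 ± 0.07 (SD of the difference over libraries). Without the 10 most abundant sites of each form the difference between GAACA and GAACC was 0.25, and that between GAACC and GAACT was 0.38. Per host counts the latter was 0.31. In each of these 3 comparisons the methylated libraries lay apart from the unmethylated ones, at the smallest exact permutation p of 0.33. The class comparisons numbered 12 in all, and no adjustment over them can reach the threshold.

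Counts of called sites followed the same order. The sites that rose were 58 GAACA (49.2% of those tested), 51 GAACC (45.9%) and 27 GAACT sites (26%), with median log2 fold changes of 1.58, 1.47 and 1.10. Tested GAACT sites also had fewer counts, with a median of 1.73 CPM against 2.28 for GAACA and 2.39 for GAACC. The part of this in the shares called was not tested. The order of the ratios held in both classes of host for GAACA, whose ratio was 3.40 (SD 0.66) in m6A-class and 3.61 (SD 0.24) in unmodified-class sequences. GAACC had 2.77 (SD 0.09) and 2.10 (SD 0.14), and GAACT 2.25 (SD 0.13) and 2.09 (SD 0.23). In the unmodified class GAACC and GAACT therefore differed by less than their SD. In that class 1 GAACT site, in DDN, held 29% of the GAACT counts, and without it the GAACT ratio was 2.81 (SD 0.16). This value still included the GAACT site of ZNF517, with 25 and 37 counts without and 783 and 657 with the complex. GAACC without its own top site had 2.20 (SD 0.22), so the order of these forms in that class turned on a single site.

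Summed by 5-mer over all bystander positions, without a filter on single sites, the 3 members were among the 5-mers with the largest change. Of 1024 5-mers 6.35% were higher and 4.3% lower, with a median log2 fold change of 0.01. GAACA changed by 1.82 ± 0.09 (SE; adjusted p = 1.88e-07), the second largest change after GGACA at 2.03. GAACC changed by 1.36 ± 0.08 (adjusted p = 4.85e-07) and ranked 6, and GAACT changed by 1.16 ± 0.08 (adjusted p = 2.89e-06) and ranked 8. Among GAACN 5-mers the one outside the consensus, GAACG, changed by 1.07 ± 0.10 (adjusted p = 2.73e-05) and ranked 10, close to GAACT.

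A comparison with the 5-mers that differ from a member at a single base set the positions of the motif apart. Replacing the C at +1 left no 5-mer called higher. Of the 9 such 5-mers 0 were higher and 1 lower by edgeR, with log2 fold changes from -0.42 (GAATA, the 1 lower) to 0.24, with 1 higher at an unadjusted p under 0.05 and 0 by DESeq2. Replacing the G at -2 left 8 of 9 higher, and the changes of the 9 ran from 0.27 to 1.27. The largest of these was TAACA at 1.27 ± 0.11, and the smallest was CAACC at 0.27 ± 0.08, which did not pass the test (adjusted p = 0.0618). Replacing the A at -1 split the 5-mers by the new base. With G there the change was 2.03 for GGACA, 1.75 for GGACC and 1.80 for GGACT, whereas with C or U it ran from -0.02 (GCACT) to 0.56 (GTACC). Of these 9, 5 were higher: those with G, and GTACA and GTACC among those with U. None with C was called.

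The flanking bases at -3 and +3, which lie outside the consensus, also went with differences. By the base at +3, sites with U had 145.9 and 152.9 CPM without and 472.4 and 506.6 CPM with the complex, a ratio of 3.28 (SD 0.19), and 41 of 77 tested were higher. Sites with C at +3 had 215.1 and 239.8 against 470.4 and 489.4 CPM, a ratio of 2.11 (SD 0.17), with 22 of 77 higher. Sites with G had a ratio of 2.87 (SD 0.42) and sites with A 2.84 (SD 0.24), with 40.3% and 41.7% of tested sites higher. The ratios for C and U at +3 were separated by more than their SDs. U at +3 owed part of its value to 1 site with 9.22% of its counts, and without the top site of each base the ratios were 2.96 for U, 2.73 for G, 2.68 for A and 2.36 for C. The ranges of 1 SD around these values overlap for all pairs of bases but U (SD 0.23) and C (SD 0.19). The difference between bases was not tested.

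At -3, sites with A had a ratio of 2.92 (SD 0.15), with U 2.89 (SD 0.27), with G 2.58 (SD 0.10) and with C 2.33 (SD 0.14). Of tested sites 43.1%, 41.4%, 38.9% and 39.3% were higher in that order. The low value of C at -3 rests on the smallest set, 96 sites with 68.5 and 74.6 CPM without and 167.0 and 165.8 CPM with the complex. Without the top site of each base the ratio was 2.77 for A, 2.96 for U, 2.82 for G and 2.32 for C. C had the lowest ratio with and without the top sites, but this did not hold in each form. With A at +2, C at -3 was lowest at 2.16 (SD 0.08). With C at +2 it was highest at 2.85 (SD 0.20), and lowest at 2.45 (SD 0.28) without the top sites. With U at +2 it had 1.96 (SD 0.20), above the 1.85 (SD 0.22) of G. The difference between bases was not tested.

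Where C stood at both +2 and +3 the gain was small, with 62.8 ± 3.96 CPM without and 118.3 ± 7.36 CPM with the complex (SD, n = 2), a ratio of 1.88 (SD 0.17). With U at +2 and C at +3 it was 1.68 (SD 0.29), and 2.06 (SD 0.37) without the top site, which held 31.8% of the counts. With A at +2 and C at +3 it was 3.41 (SD 0.66), and 3.03 (SD 0.34) without its top site, so this pooled value was not low. By the base at -3 it was uneven. Log2 changes of the summed counts were 0.91 for AGAACAC and 1.06 for TGAACAC, against 2.14 for GGAACAC and 2.21 for CGAACAC. The last was 1.09 without its top site, and the differences were not tested. The largest ratio of the 12 pairs, 4.39 (SD 0.27) for U at both, came with 40.8% of the counts in 1 site and was 2.61 (SD 0.24) without it. The largest ratio that stayed above 3.5 without its top site was that of A at +2 with G at +3, at 3.83 (SD 0.54) with it and 3.54 (SD 0.49) without.

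**Figure D3:**
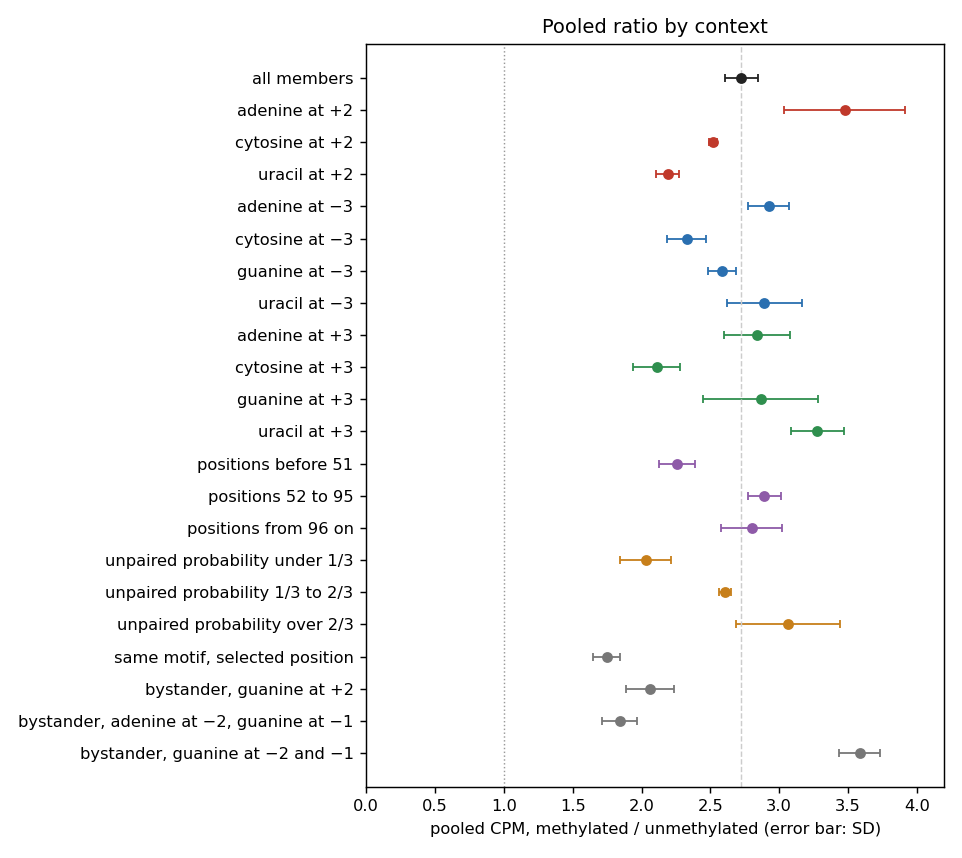
Ratio of the methylated to the unmethylated pooled CPM, with its SD over libraries as the error bar, for all members, by the base at +2, -3 and +3, by position in the sequence, by predicted pairing, and for 4 comparison classes. Members with adenine at +2 stand at 3.48, those with uracil at 2.19, and the comparison class with guanine at -2 and -1, pooled over the bases at +2, at 3.58.

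With -3 and +3 considered at once, the 48 possible 7-mers were all present, and 46 had enough counts to be tested as sums. Of these 39 were higher and 0 lower by edgeR, with 0 lower at an unadjusted p under 0.05 and 0 by DESeq2. Over all 15544 7-mers 4.07% were higher. The median change of the members was 1.47, against -0.00 over all 7-mers. Without the top site of each 7-mer 33 of the 39 remained higher and 6 did not, and 3 others became so.

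Among 7-mers with at least 10 sites the largest change was that of GGAACTT, at 2.94 ± 0.19 (SE; adjusted p = 7.40e-07), but 81.1% of its counts were in 1 of its 22 sites and the change was 0.62 without that site (adjusted p = 0.140). AGAACAT followed at 2.63 ± 0.19 over 35 sites, with 66 and 84 counts without and 502 and 594 counts with the complex, and was 2.12 without its top site. TGAACAG changed by 2.39 ± 0.18 over 39 sites, and by 1.81 without its top site, which held 53.7% of the counts. GGAACAC changed by 2.14 ± 0.17 over 26 sites and by 2.07 without its top site. GGAACAG, with 75 sites and 20.3% of its counts in the top one, had 567 and 532 counts against 2202 and 2851, a change of 1.95 ± 0.16 that was 1.91 without that site. After GGAACTT these highest 7-mers with at least 10 sites were thus all of the A-ending form. CGAACCT, with 8 sites, changed by 2.28 ± 0.24.

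At the other end, GGAACTC changed by 0.27 ± 0.18 over 30 sites and did not pass the test (adjusted p = 0.436), with 565 and 827 counts without and 1095 and 870 with the complex. Its top site, in DDN, held 73.2% of the counts, and the change was 0.55 without it (adjusted p = 0.0663). TGAACCC changed by 0.74 ± 0.18, GGAACTG by 0.75 ± 0.17, CGAACTG by 0.75 ± 0.18 and GGAACCC by 0.77 ± 0.18, and all 4 were higher at adjusted p of 0.0294, 0.0187, 0.0238 and 0.0194. GGAACTG had the most counts of these, 695 and 559 against 1303 and 1201 over 61 sites. None of these 5 had A at +2, but they were drawn from the 7-mers with at least 10 sites. The lowest of all 46 tested both had A there: CGAACAT at 0.23 over 5 sites and CGAACAA at 0.25 over 6 sites. In CGAACAT 1 site held 87.8% of the counts, and the change was 4.25 without it. GGAACTT and GGAACTC, at opposite ends, differ by the base at +3, and both values rest mainly on 1 site.

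Single sites spanned a wide range. Gene names are those of the RefSeq gene (GRCh38.p14) in which the host locus lies, irrespective of strand. Loci are given as the table gives them, and their genome build is not given in the sources used here. With exon structure not used here, the sites are placed in genes only. The place of a site in its RNA is given as its distance from the selected adenosine.

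Sites with no unmethylated count. MERTK, a receptor tyrosine kinase of phagocytes, had a GAACA site 22 nt upstream (locus at chromosome 2, 112028747, plus strand) with 0 and 0 counts without and 21 and 24 with the complex. With 3 counts in each unmethylated library as the floor it was at least 6.37-fold higher (adjusted p = 4.28e-04). POLR1F, a subunit of RNA polymerase I, had a GAACC site 6 nt upstream (chromosome 7, 19709025, minus strand) with 0 and 0 against 18 and 21 counts, at least 5.52-fold higher (adjusted p = 9.62e-04). These were the only tested sites with no unmethylated count.

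The largest rise among sites with background counts was in BLTP2, which encodes a bridge-like lipid transfer protein. Its GAACA site 51 nt downstream (chromosome 17, 28634671, minus strand) had 0.29 and 0.33 CPM without and 13.3 and 18.8 CPM with the complex, from 3 and 4 against 174 and 250 counts. The change was 5.61 ± 0.45 on the log2 scale (SE; adjusted p = 1.80e-08), and the site was higher in each of the 3 tags. In GPR157, an orphan G protein-coupled receptor, the GAACC site 18 nt downstream (chromosome 1, 9103923, minus strand) had 0.67 and 0.50 against 14.6 and 13 CPM, a change of 4.52 ± 0.41. Its 5-mer had a predicted unpaired probability of 0.104, in the most paired range described further on. In MEPCE, the capping enzyme of the 7SK RNA, the GAACC site 60 nt downstream (chromosome 7, 100430545, plus strand) had 0.38 and 0.33 against 8.77 and 6.48 CPM, a change of 4.36 ± 0.48. LENG8 had a GAACC site 35 nt upstream (chromosome 19, 54454671, plus strand) with 0.38 and 0.33 against 5.87 and 4.37 CPM, a change of 3.78 ± 0.50. All 4 had under 10 counts in each unmethylated library, so they passed the filter through their methylated counts, and none could be tested when a methylated library was left out.

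Other large rises stood on more counts. ZNF517, a zinc finger gene on chromosome 8, had a GAACT site 60 nt downstream with 2.38 and 3.08 CPM without and 59.7 and 49.5 CPM with the complex, a change of 4.28 ± 0.33 (adjusted p = 1.03e-08), higher in each of the 3 tags. A GAACA site 9 nt downstream, in a sequence with no single gene name (chromosome 19, 35543985, minus strand) had 1.24 and 0.75 against 17.9 and 16.4 CPM, a change of 4.08 ± 0.38. In APEH, a peptidase that removes acylated N-terminal residues, the GAACA site 28 nt downstream (chromosome 3, 49675188, plus strand) had 1.53 and 1.08 against 16.2 and 18.8 CPM, a change of 3.72 ± 0.36. In these 3 the replicates were close to each other beside the distance between the groups. RAB11FIP1, a Rab11 effector of recycling endosomes, was less even: its GAACC site 71 nt downstream had 3 and 15 counts without and 110 and 175 with the complex, a change of 3.71 ± 0.46. In GLRX5, a mitochondrial glutaredoxin of iron–sulfur cluster assembly, the GAACT site 43 nt downstream (chromosome 14, 95544019, plus strand) had 3.91 and 4.24 against 61.6 and 45.2 CPM, a change of 3.68 ± 0.32.

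CLSTN3, a calsyntenin of the synapse, had GAACH sites of different forms in 1 sequence (chromosome 12, 7158154, plus strand). The GAACA 11 nt downstream had 1.43 and 1.66 CPM without and 19.4 and 21.5 CPM with the complex, a change of 3.68 ± 0.34. The GAACC 43 nt downstream had 4.20 and 5.90 against 35.3 and 31.3 CPM, a change of 2.68 ± 0.31. The whole host had a mean of 6935.5 counts without and 22045.5 with the complex, and against that total the changes were 2.28 and 1.27, both past the threshold. In both fits the A-ending site had the larger change of the pair, and the difference between them was not tested.

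Among the called sites with the most counts, CEBPA, a transcription factor of myeloid cells and fat cells, had a GAACA 6 nt downstream (chromosome 19, 33301579, minus strand) with 6.96 and 3.49 CPM without and 53.5 and 58.9 CPM with the complex, a change of 3.41 ± 0.32 (adjusted p = 1.79e-07). ANKRD10, an ankyrin repeat gene, had a GAACA 47 nt downstream (chromosome 13, 110879775, minus strand) with 7.34 and 4.41 against 43.4 and 54 CPM, a change of 3.03 ± 0.31. USP20, a deubiquitinase, had a GAACA 31 nt downstream (chromosome 9, 129881005, plus strand) with 16.6 and 7.90 against 46.9 and 64.5 CPM, a change of 2.16 ± 0.32. The 5-mers of these 3 sites had predicted unpaired probabilities of 0.918, 0.938 and 0.899. PRMT6, an arginine methyltransferase, had a GAACC 43 nt downstream (chromosome 1, 107057195, plus strand) with 5.53 and 6.40 against 25.6 and 21.8 CPM, a change of 1.96 ± 0.30.

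Some smaller rises did not pass the test when methylated replicate 2 was left out, though they did without methylated replicate 1. VHL, the substrate receptor that marks hypoxia-inducible factors for degradation, had a GAACT 59 nt downstream (chromosome 3, 10141988, plus strand) with 16.3 and 17.6 CPM without and 37.5 and 43.3 CPM with the complex. The change was 1.22 ± 0.27 (adjusted p = 0.00632), and it was 1.18 without methylated replicate 2 (adjusted p = 0.114). A GAACC site 60 nt downstream, in a sequence without a single gene name (chromosome 2, 109615604, plus strand) had 6.77 and 6.98 against 18.5 and 29.7 CPM, a change of 1.77 ± 0.30 (adjusted p = 5.33e-04), and 1.46 without that library (adjusted p = 0.0560).

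Sites with ample counts did not all pass the test. DDN, which encodes dendrin, a protein of synapses and podocytes, had the most counts of any member: its GAACT 19 nt downstream (chromosome 12, 48998152, minus strand) had 41 and 52.8 CPM without and 61.9 and 43.8 CPM with the complex, a change of 0.14 ± 0.28 (adjusted p = 0.849). The groups overlapped there. RNF40, a ubiquitin ligase of histone H2B, had a GAACC 52 nt downstream (chromosome 16, 30768314, plus strand) with 17.2 and 15.0 against 30.8 and 24.9 CPM, a change of 0.77 ± 0.28 (adjusted p = 0.113). POP4, a protein subunit of RNase P and RNase MRP, had a GAACA 57 nt downstream (chromosome 19, 29615568, plus strand) with 7.34 and 5.90 against 11.5 and 10.6 CPM, a change of 0.72 ± 0.30 (adjusted p = 0.186). In both genes the groups did not overlap but the test was not passed.

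SENP6, a protease that removes SUMO chains, had a GAACC 70 nt downstream (chromosome 6, 75602164, plus strand) with 18.7 and 14.3 against 27.9 and 25.8 CPM, a change of 0.68 ± 0.28 (adjusted p = 0.168). Against the total of its own sequence, with a mean of 14390.0 counts without and 12175.0 with the complex, the change was 1.17 (adjusted p = 0.00305). A GAACA 41 nt downstream, in a sequence without a single gene name (chromosome 16, 2843828, plus strand) had 13.5 and 20.7 against 27.5 and 27.8 CPM, a change of 0.65 ± 0.29 (adjusted p = 0.211), and 0.84 against its own sequence (adjusted p = 0.0449). A GAACT 66 nt downstream (chromosome 1, 944349, plus strand) had 10.8 and 7.90 against 11.1 and 7.09 CPM, a change of -0.06 ± 0.31 (adjusted p = 0.954).

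Sites in m6A-class sequences (788) had 525.6 and 480.6 CPM without and 1342.3 and 1490.2 CPM with the complex, a ratio of 2.82 (SD 0.27). Sites in unmodified-class sequences (573) had 289.9 and 312.3 against 787.6 and 760.4 CPM, a ratio of 2.57 (SD 0.15). Per 1000 host counts the ratios were 2.65 (SD 0.20) and 2.64 (SD 0.16). On either scale the ranges of 1 SD around the ratios overlapped, and the difference between the classes was not tested. Of tested sites 44.7% and 34.6% were higher, with median changes of 1.39 and 1.34. Tested sites of the m6A class had more counts, with a median of 2.38 CPM against 1.56 CPM. The part of this in the shares called was not tested.

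Position and predicted structure went with larger differences in the pooled ratio. Sites before position 51 had 158.1 and 169.9 CPM without and 363.1 and 377.4 CPM with the complex, a ratio of 2.26 (SD 0.13). The ratio was 2.89 (SD 0.12) at 52 to 95 and 2.80 (SD 0.22) from 96 on. Of tested sites 40%, 39.5% and 42.6% were higher, which are similar shares. Their median changes were 1.38, 1.48 and 1.31, so by site the first range was not the lowest. Sites whose 5-mer had a mean predicted unpaired probability under 1/3 (234 sites) had a ratio of 2.03 (SD 0.19), and 9 of 36 tested were higher. Those in the middle range had 2.60 (SD 0.04), with 67 of 160 higher, and those over 2/3 had 3.07 (SD 0.38), with 43.8% of tested sites higher. Median changes of the tested sites in the 3 ranges were 0.86, 1.34 and 1.50. The probability comes from a model of the 141-nt sequence alone, and its part in the result was not tested. By distance from position 51 the ratio was 2.47 within 20 nt, 2.98 at 21 to 50 nt and 2.63 beyond, and without the top site of each range 2.87, 2.91 and 2.47.

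Other adenosines of the motif served as comparison. Bystander GGACH sites (2052) had a ratio of 3.58 (SD 0.15), and 475 of 826 tested were higher, with a median of 1.92. On the log2 scale the rise of GAACH bystanders minus that of GGACH bystanders was -0.40 ± 0.10 (SD of the difference). It was larger than that of bystander AGACH (1694 sites, ratio 1.84, 154 of 536 higher) by 0.56 ± 0.14, and larger than that of bystander GAACG (198 sites, ratio 2.06, 23 of 67 higher) by 0.41 ± 0.18. GAACH bystanders thus stood between GGACH and AGACH. In all 3 the groups lay apart, at the smallest exact permutation p of 0.33. The GAACA form, with 3.48 (SD 0.44), was within its SD of the GGACH value.

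GAACH at the selected position 51 rose less when pooled. These 492 sites had 617.9 and 656.9 CPM without and 1139.9 and 1086.8 CPM with the complex, a ratio of 1.75 (SD 0.10), and the bystanders' rise was larger by 0.64 ± 0.14 on the log2 scale (exact permutation p = 0.33). Of tested selected sites 38.3% were higher, beside 40.8% of the bystanders, with medians of 1.24 and 1.36. The pooled difference rested on a few sites with many counts: without the 10 most abundant sites of each class it was 0.18. By form it was 0.80 ± 0.37 for GAACA, 0.48 ± 0.21 for GAACT and 0.09 ± 0.11 for GAACC, whose groups overlapped (exact permutation p = 0.667). Without the 10 most abundant sites of each class these became 0.0303 for GAACA and -0.27 for GAACT, the latter in the other direction.

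For 25 windows of 21 nt the same adenosine was present both as a selected and as a bystander site, in different sequences. As selected sites they summed to 12.3 and 11.6 CPM without and 20.8 and 24.4 CPM with the complex, a ratio of 1.90 (SD 0.23). As bystanders, in 27 sequences, they summed to 16.8 and 14.8 against 30.7 and 37.3 CPM, a ratio of 2.15 (SD 0.35). The ranges of 1 SD around the ratios overlapped, and the difference between the roles was not tested.

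In 231 cases a bystander GAACH and the selected adenosine of its own sequence were both tested. Both were higher in 50, the bystander alone in 46, the selected one alone in 64 and neither in 71. Their median changes were 1.32 and 1.43, and Pearson's r between them was 0.18 over the 231 pairs, which share a host and its depth, as a description. Where a sequence had more than 1 tested GAACH bystander (28 sequences), all were higher in 10, some in 8 and none in 10.

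The tags gave a view of technical repetition. With 1 oligonucleotide as the unit, 184 of 459 tested GAACH sites were higher, where 3.8% of all sites were. Of the 56 sites with all 3 tags tested, 17 were higher in all 3, 23 in 1 or 2 and 16 in none, and the change was positive in all 3 tags of 47. The median range of the log2 fold change over the 3 tags of a site was 1.01. Between 2 tags of one site the median absolute difference was 0.68 over 255 pairs. Being a median, 0.68 is a typical difference between tags of one sequence and not an upper limit. Larger differences between single sites can thus also lie within what tags showed. A single tag holds fewer counts than a summed site. Copies of one window in different sequences gave a like spread: of 13 windows with at least 2 tested copies, all copies were positive in 10 and the median range was 0.94.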

How the data were processed

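Crosslink stops of miCLIP2 were measured in 4 libraries, 2 without and 2 with the writer complex. The authors deposited raw counts per nucleotide, 141 positions per oligonucleotide and library, without normalization. Tools named in the submitters' processing notes are STAR 2.7.3a, bedtools 2.27.1 and FastQC 0.11.8. Not given in the sources used here are their roles, the genome build and any removal of duplicate reads.

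Counts of the 3 oligonucleotides of a sequence were summed. Positions with at least 10 counts in at least 2 libraries, over all classes of sequence, entered one fit by edgeR 4.0.16 under R 4.3.3, with TMM scaling, the group as its single term and the quasi-likelihood F test. P-values were adjusted over the whole table by Benjamini-Hochberg at a threshold of 0.05, and the members' values were read from that fit. Sums by 5-mer and 7-mer were fitted in the same way. Each SE was obtained by dividing the change by the root of F. CPM uses library totals. The SD of a ratio combines those of both groups, and pooled levels were compared by exact permutation over libraries. Folds against no count used a floor of 3 counts per library. Pairing came from ViennaRNA 2.7.2, and plots from matplotlib 3.10.9 with Python 3.11.15. Scripts were tested on simulated data.

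Replicates of a group differed beyond sampling noise: chi-square per degree of freedom was 44.9 and 39 for sequence totals and 2.81 and 3.55 for member sites. Of 1110 host loci 98.5% lay in a RefSeq gene, against 65.4% to 71.5% after shifts of 50000 or 500000 nt, and 970 lay in exactly 1, whose symbol was used.

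Named sites were the 10 largest rises with at least 3 counts in each unmethylated library, any falls (none was called), for each +2 base the 3 called and 2 uncalled sites with the highest mean CPM, and tested sites with no unmethylated count. Named 7-mers were the 5 highest and 5 lowest with at least 10 sites. The members and lists were chosen with earlier results of these data known. Alternatives were DESeq2 1.42.0, other scalings, filters, units and denominators, leaving out libraries, abundant sites or repeated windows, and a replicate block. Sequence from chromosome 8 was not printed.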

Additional observations from a re-analysis of the deposited data

Results flagged for a closer look

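GAACH adenosines outside position 51 also occurred in sequences that the comparisons did not use, and both sets had higher levels with the complex. In the permutated sequences, in which motifs had been exchanged, 150 such sites summed to 73 and 62.2 CPM without and 171.7 and 166.8 CPM with the complex, a ratio of 2.50 (SD 0.29). In the sequences of none of the described classes, 9 sites of 8 sequences summed to 3.82 and 2.16 against 7.17 and 6.48 CPM, a ratio of 2.28 (SD 0.91). In both sets the 2 methylated libraries lay above the 2 unmethylated ones, at the smallest exact permutation p of 0.33. Of the windows around member sites, 30 were shared with permutated sequences, so those sets are not independent of the members.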

How the results depend on the processing

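The called sites made up 9.99% of the 1361 members, and 6.32% with DESeq2, 5.80% with at least 50 counts in 2 libraries, which tests fewer sites, and 4.51% of the members' oligonucleotides with 1 oligonucleotide as the unit. Leaving out 1 library gave 3.45% to 10.2%, with 0 lower. The other alternatives gave 8.08% to 10.5%: library totals, TMM on sites outside DRACN, the own-sequence total, no filter, repeated windows left out, a mean of at least 10 counts (added after seeing the data), and the replicate number as a block (10.5%). The numbers gave no pairing (r of -0.07 between the groups' replicate differences over 142938 sites), and the block changed no call of a named site, 5-mer or count of 7-mers.

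The pooled ratio of 2.72 was 2.59 without the 10 most abundant members. Changes of the 3 5-mers kept their direction and side of the threshold under all alternatives run, and 32 to 40 of the 7-mers were higher. Differences between classes moved most. Without the 10 most abundant sites of each class, bystander over selected GAACH fell to 0.18 (0.11 for the m6A class, 0.31 for the unmodified class), GAACA over GAACC was 0.25, GAACC over GAACT was 0.38, and bystander over selected was 0.0303 for GAACA and -0.27 for GAACT, which reversed. Per host counts GAACA over GAACT was 0.89, GAACC over GAACT 0.31, and bystander over selected GAACT 0.25. The cause was not tested. The filter on counts left 1028 members untested, and each group had 2 libraries.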
